A study of Mus musculus with 6 samples.

Results

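Transcripts of 10 genes of ADP-ribosylation were followed in RAW264.7 cells labelled E4BP4 knockout and in control RAW264.7 cells. They were the PARP family genes Parp1, Parp2, Parp3, Parp8, Parp9, Parp10, Parp11, Parp12 and Parp14, and Dtx3l, the ubiquitin ligase gene whose product binds PARP9. The 10 were selected by gene symbol, with earlier results of these data known, out of 25124 symbols in the deposited table, and 6 of them (Parp9, Parp10, Parp11, Parp12, Parp14 and Dtx3l) were set apart as interferon-linked, leaving Parp1, Parp2, Parp3 and Parp8 as the other 4. RAW264.7 is a mouse tumour-derived line with macrophage properties, and E4BP4 is the bZIP repressor encoded by Nfil3. Polyadenylated RNA was sequenced from 3 knockout-labelled libraries and 3 control libraries, all from untreated cells of low passage grown in high-glucose medium with serum. How the knockout was made, whether it is 1 clone or a pool, and whether the 3 libraries of a group came from separate cultures are points not given in the sources used here. For that reason, the spread behind each p-value is that among these 6 libraries and may in part be technical.

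PARP enzymes take ADP-ribose from NAD and attach it to proteins or nucleic acids. PARP1, PARP2 and PARP3 are nuclear, are switched on by DNA breaks and help recruit repair factors, with PARP1 and PARP2 building long chains. Several of the others attach single units or, like PARP9, have little or no transferase activity alone, and a group of them is induced by interferon in macrophages and other cells. In that group PARP9 and DTX3L form a complex, and PARP14 is known as a regulator of macrophage activation.

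Reads recovered from the deposited values of the listed genes came to 15615639 to 19867732 per library. They are not the full depth, as the authors' second table states a larger total for each library. Nfil3, the gene named as the target, stood at 105, 104 and 99.8 TPM with the knockout label, against 29.5, 29.9 and 31.0 TPM among controls (limma adjusted p = 4.96e-09). TPM, transcripts per 1e6, is a level per transcript length, and the listed values summed to 55.1% to 55.6% of 1e6 per library. Nfil3 RNA was thus higher, not lower, with the knockout label. It does not check the protein, and every direction below rests on the labels. All 8 macrophage markers examined were detected, 5 lower, 1 higher (Lyz2) and 2 not passing. Over all tested genes, 23.4% were lower and 26.7% higher. The summed level of the 8 markers, most of it Lyz2, was 3230 to 3400 TPM under the knockout label and 2310 to 2570 TPM in the controls. Markers of T cells, B cells, fibroblasts and epithelium summed to at most 0.303 TPM per list in any library, with Cd3g and Krt8 among those at 0 in all 6. The part of the macrophage markers in the results below was not tested.

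The promoters shown are those of Dtx3l and Parp12, interferon-linked genes that fell, and of Parp11, which did not pass the test. They were picked by those outcomes, and their part in the changes was not tested. RefSeq promoter windows (GRCm38.p6, the mm10 assembly) were matched for 7 of the 10 genes, all but Parp9, Parp10 and Parp14. Each line gives the 250 bases before an annotated start, 5′ to 3′ on the gene's own strand. Capitals mark matches to the interferon-stimulated element core (GAAA, any 2 bases, GAAA) or to the STAT-type element TTCNNNGAA on either strand. Parp11 has 2 annotated starts 6787 bases apart, and both are shown.
Parp11 upstream start, chr6:127446590-127446839, plus strand: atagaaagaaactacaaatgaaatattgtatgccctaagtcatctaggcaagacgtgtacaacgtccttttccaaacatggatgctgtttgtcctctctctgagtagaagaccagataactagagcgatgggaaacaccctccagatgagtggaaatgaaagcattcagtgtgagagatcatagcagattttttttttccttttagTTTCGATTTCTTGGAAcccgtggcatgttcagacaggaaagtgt
Parp11 downstream start, chr6:127453377-127453626, plus strand: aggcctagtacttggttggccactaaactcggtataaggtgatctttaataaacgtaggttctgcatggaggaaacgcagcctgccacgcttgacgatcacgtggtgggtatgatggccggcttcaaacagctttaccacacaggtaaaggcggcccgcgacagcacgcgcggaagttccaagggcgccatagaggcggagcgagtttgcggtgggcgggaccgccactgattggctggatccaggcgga
Dtx3l, chr16:35939028-35939277, minus strand: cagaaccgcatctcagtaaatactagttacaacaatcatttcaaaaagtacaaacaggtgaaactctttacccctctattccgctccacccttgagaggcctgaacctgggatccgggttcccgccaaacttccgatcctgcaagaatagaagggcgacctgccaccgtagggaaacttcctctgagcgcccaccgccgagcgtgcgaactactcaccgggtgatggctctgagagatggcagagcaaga
Parp12, chr6:39118350-39118599, minus strand: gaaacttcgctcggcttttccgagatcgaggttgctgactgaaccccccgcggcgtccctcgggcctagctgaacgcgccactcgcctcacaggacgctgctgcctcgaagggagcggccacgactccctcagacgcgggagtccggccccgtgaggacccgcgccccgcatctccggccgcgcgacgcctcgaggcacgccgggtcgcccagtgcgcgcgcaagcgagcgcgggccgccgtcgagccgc
The upstream Parp11 window held 1 match to each element, with the core read on the minus strand, and the 2 matches overlap in the capitals. The core match began 44 bases before the start. The other windows of the 7 genes held neither element, the window of the downstream Parp11 start included. That downstream start is where the deposited Parp11 row begins. Over all 32851 RefSeq windows of 300 bases, 3.44% held the core and 8.30% held TTCNNNGAA. The E4BP4 D-box forms TTATGTAA and TTACGTAA were in 0.938% and 0.119% of windows, and in none of the windows of the 7 genes. A list of interferon-induced effectors had the core in a window of 9 of its 13 matched genes, among them Isg15, Ifit1 and Oas1a. The core was in a window of 1 of 8 matched genes of interferon receptor signalling (Stat2) and of 1 of 6 other ADP-ribosyltransferase genes (Parp4). These counts are of genes with the core in any of their windows, so they are not directly comparable with the 3.44% of windows. A match is a string of letters and not a site of binding.

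Of the 9 members tested, 7 were lower in the knockout-labelled libraries, 0 were higher and 2 did not pass (limma on log2(TPM + 1), Benjamini-Hochberg adjusted p under 0.05 over 11257 genes). Over all tested genes 50.1% were called, 23.4% as lower and 26.7% as higher, and the median log2 fold change was 0.02 against −0.39 for the members. The same 7 were those whose 3 knockout-labelled libraries all lay below the 3 controls, which held for 27.2% of tested genes (58.5% were without overlap in either direction). Parp8, the tenth member, did not reach the filter of at least 1 TPM in at least 3 libraries and was not tested in this fit. All fold changes on the log2 scale here are of log2(TPM + 1), labelled knockout minus control. In bulk RNA, fewer cells that express a gene and less of its RNA per cell cannot be told apart.

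**Figure D1:**
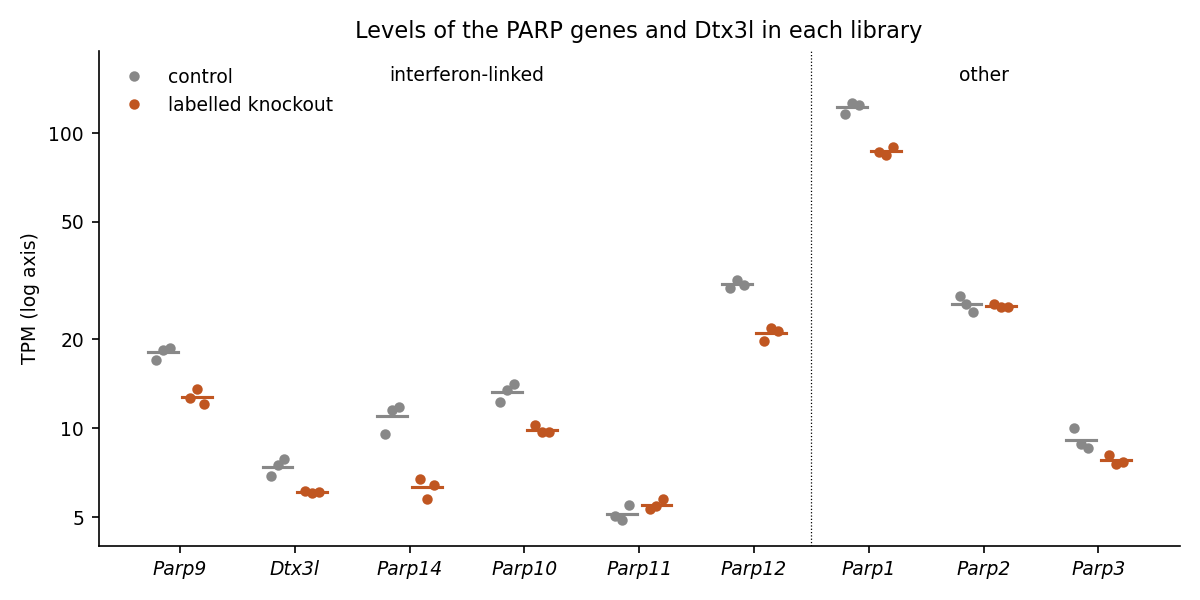
Level of each tested member in each library (TPM, log axis), with controls in grey, knockout-labelled libraries in orange and a bar at each group's mean. The points of the groups do not mix for 7 genes, whereas those of Parp11 and Parp2 do, and Parp8, near 0 throughout, is left out.

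Parp14 had the lowest log2 fold change of the 9 tested members. It encodes a large macrodomain enzyme that adds single ADP-ribose units. It stood at 6.72, 5.78 and 6.42 TPM with the knockout label, against 9.58, 11.5 and 11.8 TPM among controls. Control replicate 1 was the lowest control, yet it stood above every library labelled knockout. The means were 6.30 ± 0.479 and 10.96 ± 1.20 TPM (SD, n = 3 each), so that it fell by 42.5% (log2 fold change −0.71, SE 0.0843, limma adjusted p = 0.000103), and 3.0% of tested genes had a lower fold change.

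Parp9, which encodes a macrodomain protein that works with DTX3L, was also lower. It measured 12.6, 13.6 and 12.1 TPM under the knockout label and 17.1, 18.4 and 18.7 TPM in the controls. The groups did not overlap, and the mean fell by 29.3% (log2 fold change −0.47, SE 0.0586, limma adjusted p = 0.000141). Dtx3l, the ligase partner, measured 6.12, 6.03 and 6.06 TPM against 6.86, 7.50 and 7.85 TPM. The groups were again separate, but the change was smaller, as it fell by 18.0% (log2 fold change −0.25, SE 0.0640, limma adjusted p = 0.00979). Its 3 knockout-labelled libraries varied by a CV of 0.698%, less than the 4.44% that read counting alone would give at 488 to 525 reads.

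Parp12 and Parp10 encode enzymes that attach single ADP-ribose units, PARP12 with zinc fingers that bind RNA. Parp12 was the most abundant interferon-linked member, with 19.8, 21.8 and 21.4 TPM under that label and 29.9, 31.8 and 30.7 TPM in the controls. Its groups were far apart relative to their spread (log2 fold change −0.53, SE 0.0499, limma adjusted p = 2.21e-05). Parp10 measured 10.2, 9.68 and 9.70 TPM against 12.2, 13.5 and 14.1 TPM. It fell by 25.6%, with no overlap between groups (log2 fold change −0.39, SE 0.0611, limma adjusted p = 0.000576).

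Parp11, which encodes an enzyme that modifies the interferon receptor pathway among other targets, was the interferon-linked member that did not pass. It stood at 5.32, 5.47 and 5.75 TPM with the knockout label, against 5.04, 4.88 and 5.48 TPM among controls, from 269 to 347 reads per library. The groups overlapped, because control replicate 3 lay above 2 of the knockout-labelled libraries. The log2 fold change was 0.09 with a 95% interval of −0.06 to 0.24 (limma adjusted p = 0.310), and that interval lay above the intervals of the other 5 interferon-linked members. The difference between members was not tested.

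Parp1, the main enzyme of the DNA damage response, was the most abundant member and also fell. It measured 86.2, 84.2 and 90.0 TPM under the knockout label and 115.9, 126.1 and 124.2 TPM in the controls. From 4829 to 6941 reads per library, it had the best counting precision of the 10 genes, and its groups were well separated. The means were 86.8 ± 2.92 and 122.1 ± 5.47 TPM (SD, n = 3 each), and it fell by 28.9% (log2 fold change −0.49, SE 0.0440, limma adjusted p = 1.8e-05). That value lies between those of Parp12 and Parp9.

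Parp2, the close relative of Parp1 in break repair, did not pass. It measured 26.3, 25.7 and 25.7 TPM against 28.0, 26.4 and 24.7 TPM, and all 3 knockout-labelled libraries fell within the range of the controls. The log2 fold change was −0.02 (95% interval −0.14 to 0.09, limma adjusted p = 0.718). The ratio of Parp1 to Parp2 TPM was 3.28, 3.28 and 3.50 under the knockout label and 4.14, 4.78 and 5.02 in the controls. These ranges did not overlap, and the difference between the 2 genes was not tested.

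Parp3, a DNA-break-dependent enzyme that adds single units, had a small decrease near the threshold. It measured 8.14, 7.54 and 7.68 TPM under the knockout label and 10.0, 8.86 and 8.55 TPM in the controls, groups that did not overlap. The log2 fold change was −0.20 (SE 0.0681, limma adjusted p = 0.0309). It no longer passed when knockout-labelled replicate 2 was left out (limma adjusted p = 0.0922), nor without knockout-labelled replicate 3 (0.0784), without control replicate 1 (0.0881) and without a filter on low values (0.0791).

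Parp8, a little-studied member that adds single units, was barely detected. The table gave it 0, 0.017 and 0.009 TPM with that label and 0.117, 0.112 and 0.075 TPM in the controls, which came to 0, 2 and 1 reads against 13, 12 and 7 reads. Every control lay above every library labelled knockout. The pooled ratio was 0.0841 of the control level with an exact 95% counting interval of 0.0165 to 0.269, which covers counting error only, and PCR copies are counted as reads. Without the filter on low values, limma gave Parp8 a log2 fold change of −0.13 on log2(TPM + 1) (adjusted p = 0.00753), so that it passed as lower. The authors' deposited table gave Parp8 a log2 fold change of −3.52 (adjusted p = 0.00302), from a transcript model of 3035 bases against 7054 bases in the TPM table.

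For the 9 tested members, the authors' deposited table had the same signs as the fit, with log2 fold changes from −0.81 for Parp14 and −0.57 for Parp12 to 0.08 for Parp11. Parp1 stood at −0.51, Parp9 at −0.51, Parp10 at −0.45, Dtx3l at −0.30, Parp3 at −0.25 and Parp2 at −0.04 there.

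**Figure D2:**
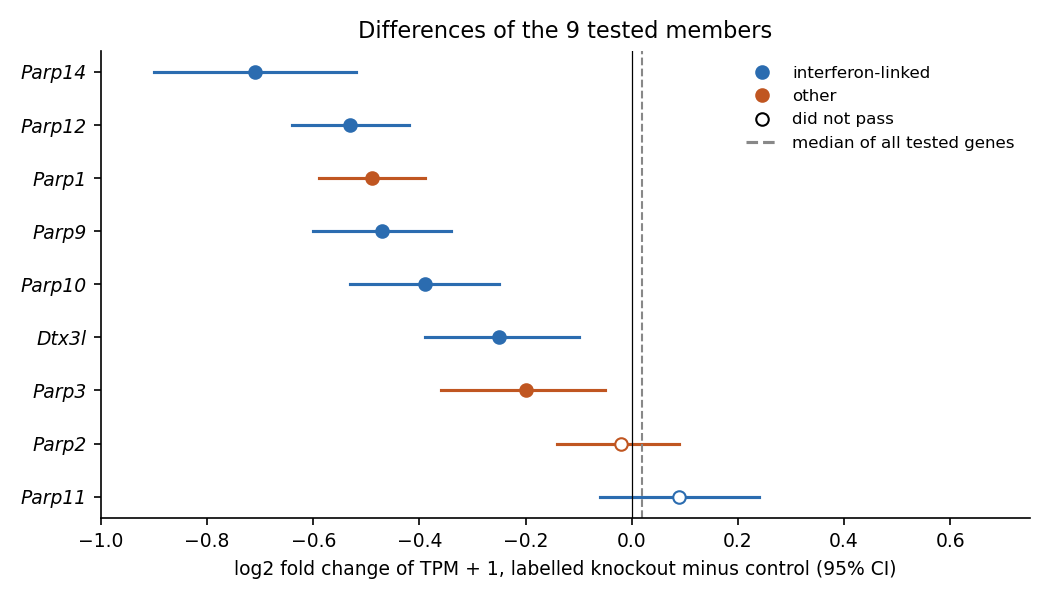
Log2 fold change of TPM + 1 (horizontal, labelled knockout minus control) of the 9 tested members, with 95% limma intervals, interferon-linked genes in blue, others in orange and open points for genes that did not pass; the dashed line marks the median of all tested genes. Parp1 at −0.49 lies among the interferon-linked genes, and Parp11 at 0.09 lies apart from them.

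The division into interferon-linked and other members did not by itself sort the genes by their change. Over all tested genes, 23.4% were lower. Of the interferon-linked genes, 5 of 6 were lower and 1 did not pass, with a median log2 fold change of −0.43. Of the 3 other genes tested, 2 were lower and 1 did not pass, with a median of −0.20. The medians differed by −0.23, a description of a few genes with no test, and that difference was −0.15 without control replicate 3 and −0.33 without control replicate 1. Averaged per library on log2(TPM + 1), the 6 genes minus Parp1, Parp2 and Parp3 came to −1.46, −1.40 and −1.44 with the knockout label. The same difference was −1.43, −1.28 and −1.18 in the controls, and the groups overlapped.

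Added over all 10 genes, the TPM came to 181, 180 and 185 under the knockout label and 235, 249 and 246 in the controls. The interferon-linked genes made up 33.5%, 34.7% and 33.2% of that sum against 34.4%, 35.2% and 36.0%, ranges that overlapped. Parp2 took a larger share under the knockout label, 14.5%, 14.3% and 13.9% against 11.9%, 10.6% and 10.0%, without overlap. Parp1 alone gave 46.8% to 48.7% of the sum under the knockout label and 49.4% to 50.6% in the controls.

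In order of level per length, Parp1 led in each group and Parp8 was last. In the controls Parp12 came next, followed by Parp2, Parp9, Parp10, Parp14, Parp3, Dtx3l and Parp11. Parp14 and Parp3 had overlapping ranges there, and no other neighbours in the order did. In the knockout-labelled libraries Parp2 stood above Parp12, and Parp3 above Parp14. Parp14 and Dtx3l then had overlapping ranges, at 5.78 to 6.72 and 6.03 to 6.12 TPM, with no other overlap between neighbours.

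Parp9, Dtx3l and Parp14 lie together on chromosome 16 (mm10). Parp14 runs from 35832878 to 35871382 on the minus strand, Dtx3l from 35926515 to 35939027 on the minus strand, and Parp9 from 35938470 to 35972621 on the plus strand. Parp9 and Dtx3l start head to head and their transcribed regions overlap by 558 bases. In GENCODE M21 their exons share 458 bases on opposite strands. The library kit does not mark strand, so reads from those bases cannot be assigned to 1 of the 2 genes, and their values are uncertain to that extent. Parp9 exceeded Dtx3l by a ratio of 2.06, 2.26 and 1.99 under the knockout label and 2.49, 2.46 and 2.38 in the controls. The ratio of Parp9 to Parp14 moved the other way, 1.88, 2.36 and 1.88 against 1.78, 1.6 and 1.58. Neither ratio overlapped between groups, and the differences in change between the 3 genes were not tested.

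**Figure D3:**
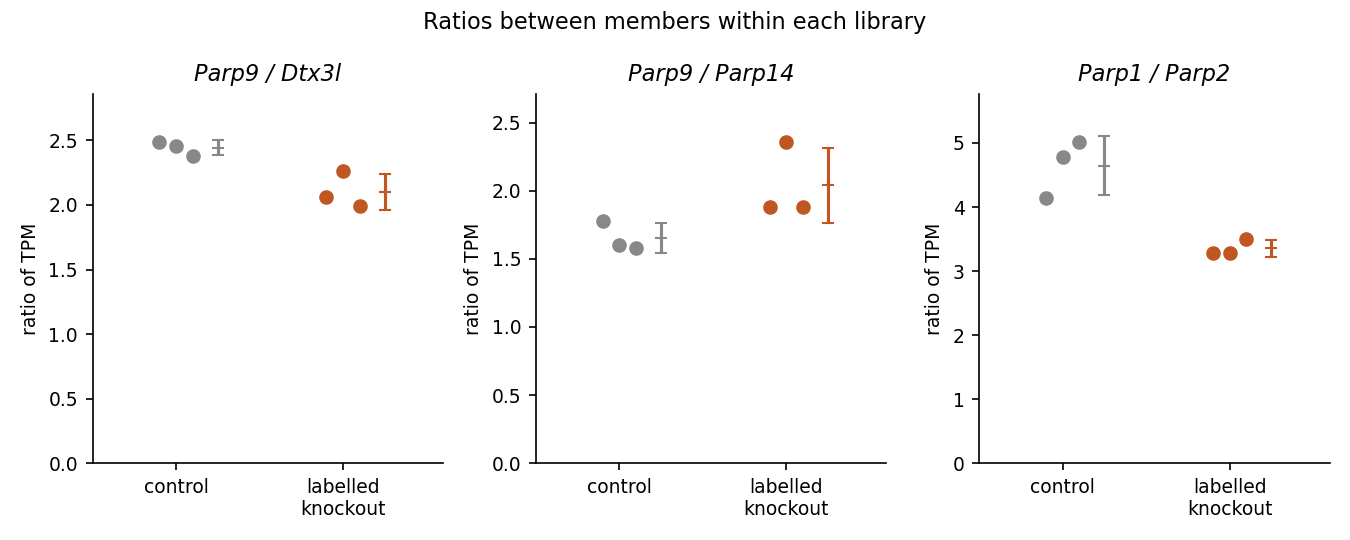
Ratios of TPM between members within each library, with points for libraries and a bar for the mean ± SD of 3 libraries beside them. The Parp9 to Dtx3l and Parp1 to Parp2 ratios are lower and the Parp9 to Parp14 ratio is higher in all 3 knockout-labelled libraries.

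No tested gene next to this cluster passed as lower. Of the 5 tested non-members within 200 kb of Parp9, 0 passed as lower and 2 as higher (23.4% and 26.7% of all tested genes). Kpna1, which encodes a nuclear import receptor and lies 10741 bases from Parp9, had a log2 fold change of 0.08 (limma adjusted p = 0.300). Slc49a4, the nearest tested gene on the far side of Parp14, stood at 0.30 on the log2 scale, short of the threshold. Fam162a and Ccdc58 were the 2 that were higher, with log2 fold changes of 0.28 and 0.30.

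**Figure D4:**
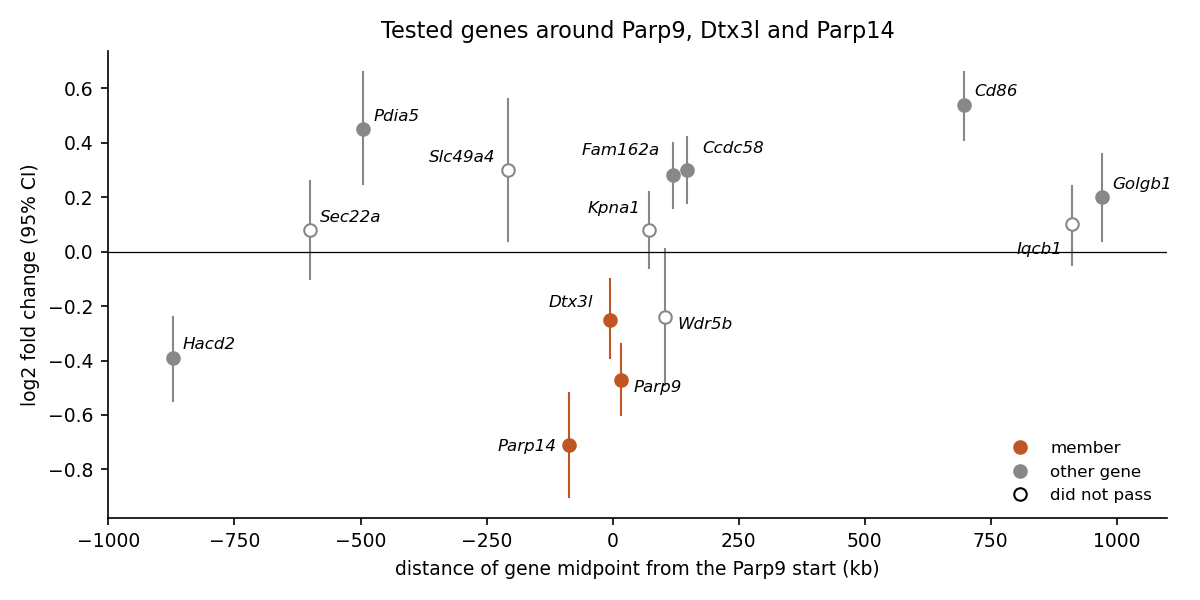
Log2 fold change with 95% limma intervals (vertical) of all tested genes within 1000 kb of the Parp9 start, against the distance of each gene's midpoint from it (kb), with members in orange and open points for genes that did not pass. The 3 members lie at −0.71, −0.25 and −0.47, and the 4 genes nearest on the right range from −0.24 to 0.30.

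The other members lie singly. Beside the counts that follow, 23.4% of all tested genes were lower and 26.7% higher. Near Parp12 on chromosome 6 (39086412 to 39118349), 2 of 3 tested genes within 200 kb were higher, among them 4930599N23Rik, which begins 123 bases from it (log2 fold change 0.47). Near Parp10 on chromosome 15 (76232995 to 76243440), 2 of 15 passed as lower and 1 as higher. The 2 were its nearest neighbours, Plec, which encodes the cytoskeletal linker plectin, with a log2 fold change of −0.76, and Grina at −0.31. GENCODE M21 places 205 exonic bases of Parp10 within Plec exons on the same strand. The deposited Plec row lies 33588 bases from that of Parp10, however, so the 2 rows behind these values do not overlap. Near Parp1 on chromosome 1 (180568891 to 180600999), 3 of 4 were lower. They were Itpkb, an inositol phosphate kinase gene, at −0.31, Lin9 at −0.25, and Mir6904, whose row lies inside Parp1 and may share its reads, so that it is no separate neighbour. Lin9 was named after its value was seen. Near Parp3 on chromosome 9 (106470322 to 106476949), 4 of 9 were lower and 1 was higher. Rrp9, which begins 359 bases away on the opposite strand, was the higher (log2 fold change 0.19), and Pcbp4 was lower at −0.29. In GENCODE M21 exons of Parp3 and Rrp9 share 20 bases, though the deposited rows do not overlap. Around Parp2 on chromosome 14 (50807916 to 50821301), 2 of 9 were lower and 2 higher. Parp11 on chromosome 6 (127453627 to 127494261) and Parp8 on chromosome 13 (116850844 to 117025531) had no tested gene within 200 kb. The nearest tested genes to Parp11, Ccnd2 and Tspan9, were both lower (−1.55 and −0.41), at 302578 and 467134 bases.

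Of the 7 other ADP-ribosyltransferase genes of the family, 4 passed as higher and 0 as lower, leaving 3, and the median log2 fold change was 0.25. Among all tested genes, 26.7% were higher and 23.4% lower. Zc3hav1, which encodes the zinc finger antiviral protein, a family member without transferase activity, rose from 44.8 ± 4.96 to 59.9 ± 1.6 TPM (SD, n = 3 each), by 0.42 on the log2 scale (limma adjusted p = 0.00096). Tiparp, the aryl hydrocarbon receptor target that encodes PARP7, rose from 43.1 ± 0.731 to 54.7 ± 2.89 TPM. The tankyrase genes Tnks2 and Tnks, whose products act at telomeres and in Wnt signalling, rose by 0.27 and 0.25 on the log2 scale. Parp4, Parp6 and Parp16 stood at −0.08, −0.04 and 0.04 and did not pass. The summed level of these 7 genes was 196 to 208 TPM under the knockout label and 151 to 171 TPM in the controls, the opposite direction to the sum of the 10.

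Enzymes that remove ADP-ribose were higher in 5 of 8 tested cases, lower in 0, with a median of 0.16. Shares over all tested genes were 26.7% higher and 23.4% lower. Adprh, which frees arginine of ADP-ribose, and Macrod1, a macrodomain hydrolase gene, rose by 0.26 and 0.36 on the log2 scale. Nudt5 and Nudt16, which cleave ADP-ribose or its protein-bound form, rose by 0.16 and 0.20. Parg, the main chain-degrading enzyme, measured 15.6 ± 0.465 against 14.7 ± 0.773 TPM (SD, n = 3 each) and did not pass.

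Co-factors of PARP1 and genes of single-strand break repair were mixed, with 6 of 14 higher, 2 lower and 6 not passing, and a median of 0.10. All tested genes gave 26.7% higher and 23.4% lower. Xrcc1, the scaffold that PARP1 chains recruit, rose from 20.4 ± 0.617 to 25.5 ± 0.559 TPM (SD, n = 3 each), by 0.31 on the log2 scale (limma adjusted p = 0.000318). Tdp1, which cleans DNA ends, rose by 0.32, and H2afy, the macroH2A gene, rose by 0.22. The 2 that were lower, Parpbp and Fen1, both at −0.18, were named after their values were seen. Hpf1, which directs PARP1 to serine, measured 105.3 ± 1.52 against 101.1 ± 3.04 TPM and did not pass.

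Of the Deltex relatives of Dtx3l, Dtx4 rose from 10.7 ± 0.0580 to 15.7 ± 0.343 TPM (SD, n = 3 each), by 0.51 on the log2 scale (limma adjusted p = 1.98e-05), and Dtx3 rose by 0.17 on the log2 scale. Dtx2 fell (log2 fold change −0.29), and Dtx1 was too low to be tested. In the list of NAD supply and use, 8 of 11 tested genes were higher, 1 (Nmrk1, at −0.31) was lower and 2 did not pass, with a median of 0.28. Over all tested genes, 26.7% were higher and 23.4% lower. Nampt, the main salvage enzyme, rose from 73.3 ± 2.44 to 93.1 ± 0.724 TPM, and the deacetylase gene Sirt2 and the NAD kinase gene Nadk rose by 0.46 and 0.28. Qprt, of NAD synthesis from quinolinate, had the highest value of the list at 3.30.

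Interferon-induced genes outside the family were mostly lower. Of 15 tested effectors, Rtp4 and Ifit1 were under 1 TPM in all 3 knockout-labelled libraries and entered the test only through the controls. Of the other 13, 12 passed as lower and 0 as higher, with a median log2 fold change of −0.77 against −0.43 for the 6 interferon-linked members. Lower calls made up 23.4% of all tested genes, and higher calls 26.7%. Oas3 and Oas1a, sensors of double-stranded RNA, had log2 fold changes of −1.26 and −0.68. Rtp4, a chaperone gene of the antiviral response, measured 0.614 ± 0.103 TPM against 4.54 ± 0.369 TPM in the controls (SD, n = 3 each). Bst2, which encodes tetherin, fell from 110.0 ± 5.23 to 67.2 ± 3.53 TPM. Upstream of them, 5 of 9 genes of receptor signalling were lower and 0 higher, with a median of −0.20. The transcription factor genes Irf7, Irf9, Irf1 and Stat2 fell, with values of −1.43, −0.47, −0.46 and −0.44. No test compared the lists with each other.

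**Figure D5:**
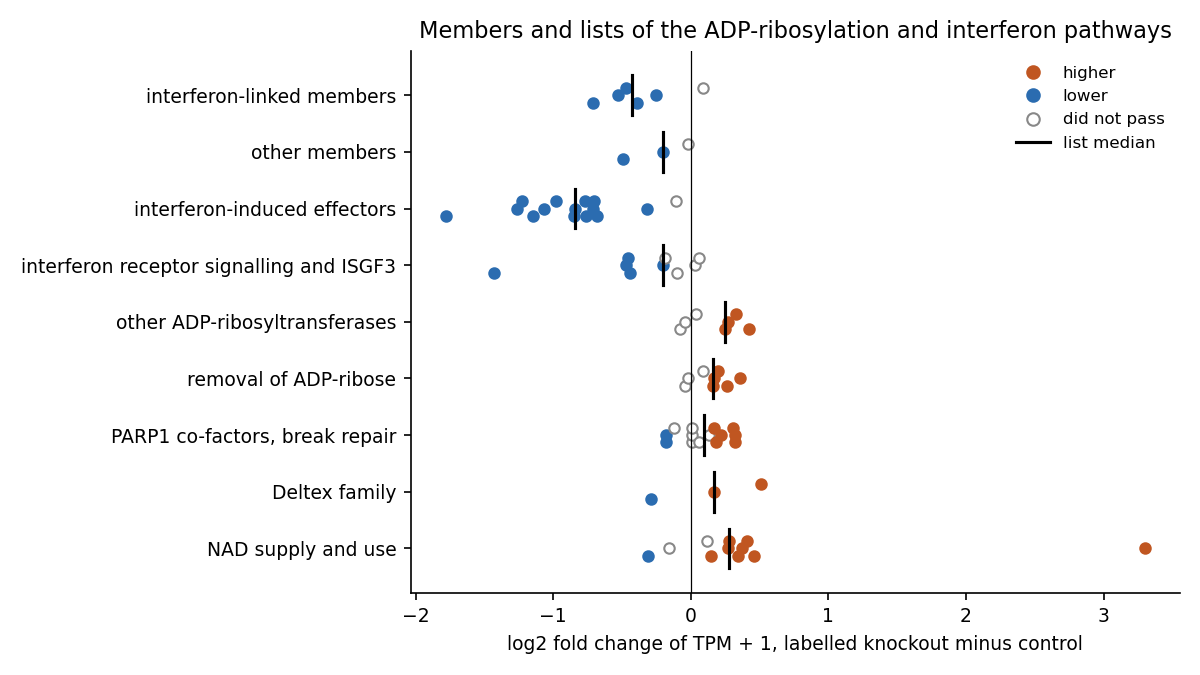
Log2 fold change of TPM + 1 of each tested gene (horizontal), for the members and for 7 lists of related genes (rows), with higher genes in orange, lower in blue, open points for genes that did not pass and a bar at each median. Medians run from −0.84 for all 15 interferon-induced effectors, Rtp4 and Ifit1 included, and −0.43 for the interferon-linked members to 0.25 for the other ADP-ribosyltransferases and 0.28 for NAD supply and use.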

How the data were processed

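RNA-seq of 6 RAW264.7 libraries was used, 3 per group. Tools listed in the submitters' processing notes are HOMER 4.11.1, STAR 2.7.5a, DESeq2 and bcl2fastq, with mm10 as the build and no roles stated. The authors deposited TPM values with 1 RefSeq transcript per symbol, and a second table of log2 values per library with log2 fold changes, p-values and adjusted p-values of their own comparison, whose header reads WT vs. TG. TG was taken to mean the knockout-labelled group. The transform behind the log2 values stays unknown, being not given in the sources used here.

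Genes with at least 1 TPM in at least 3 of 6 libraries were tested on log2(TPM + 1) with limma 3.58.1 (mean-variance trend, R 4.3.3, two-sided, no covariates), and p-values were adjusted over all tested genes. The pseudocount of 1 understates changes of low genes. TPM multiplied by length fell on whole multiples of 1 step per library (within 0.1 for 100.0% of values checked), which gave the reads. Replicates differed by more than counting noise (chi-square per degree of freedom 1.81 to 6.01), most between control replicates 1 and 2. All 6 libraries were kept. The fit was tested on simulated data. Columns left unused numbered 0.

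The members and lists were chosen with earlier results of these data known. Named genes are the 10 members, Nfil3, up to 4 genes per list with the smallest adjusted p, and the nearest tested neighbours that passed; others were named after their values were seen. Some genes that this rule or the lists hold are counted but not reported here by name. Alternatives were another pseudocount, other filters, upper-quartile scaling, limma-voom on recovered reads, the deposited log2 values, a replicate block and leaving out each library.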

Additional observations from a re-analysis of the deposited data

How the results depend on the processing

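Parp1, Parp9, Parp10, Parp12, Parp14 and Dtx3l kept their direction and their call under all 13 alternatives, with log2 fold changes of −0.52 to −0.46, −0.52 to −0.41, −0.44 to −0.33, −0.57 to −0.48, −0.81 to −0.65 and −0.30 to −0.21. The largest adjusted p among these was 0.0429, for Dtx3l. Parp11 did not pass in any (0.05 to 0.13). Parp2 did not pass in any, and with a library left out it ranged from −0.07 to 0.02, the positive value being without control replicate 1. Parp3 ranged from −0.25 to −0.14 and lost its call in 4 of 13. In 1 of those 4, without a filter on low values, Parp8 was tested and passed as lower, so the number of other members called stayed at 2. With a library left out, the number of other members called was 1 to 2, and the difference between the medians of the member groups ranged from −0.33 to −0.15. The number of interferon-linked members called was 5 in each alternative. Over all genes, calls ranged from 4700 with a library left out to 6167 with limma-voom, against 5639. With limma-voom on recovered reads and with upper-quartile scaling, lower calls outnumbered higher ones (3143 to 3024 and 2929 to 2819), against 2637 lower and 3002 higher as reported.

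Deviations of same-numbered libraries correlated at −0.06 to 0.00, so no shared deviation by number was seen. That cannot show whether the libraries were prepared in pairs. With a replicate block 5297 genes were called, with 5 interferon-linked and 2 other members. As rounded, no library correlated more with its own number than with all other numbers. Depth limits Parp8, with 35 reads in 6 libraries.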
